A study of Macaca mulatta with 30 samples.

Results

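The circadian clock genes described here are 10 genes of the core clock and its first outputs, PER1, PER2, PER3, CRY1, CRY2, CLOCK, NR1D1, NR1D2, DBP and TEF. They were taken by gene symbol from 30246 gene identifiers counted in fetal lung and 32386 counted in fetal hippocampus, and all 10 symbols were found in both sets. Of 17644 lung genes with enough reads to be tested, 10 were clock genes of this list, and of 17390 tested hippocampus genes 9 were, since CLOCK was below the read minimum there.

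The question of the study was how the formulation and dose of antenatal betamethasone, a synthetic glucocorticoid given to the mother to mature the fetal lung, change gene expression in fetal rhesus macaques. Pregnant animals of known mating date, wild type by the lung labels, were injected in the muscle with saline, the clinical drug (Celestone, betamethasone phosphate with betamethasone acetate, 0.25 mg/kg), or betamethasone acetate alone (Beta-Ac, 0.125 mg/kg). Lung was taken from 3 fetuses in each of 5 groups, which were saline, 4 h and 5 days after the clinical drug, and 6 h and 5 days after Beta-Ac. Hippocampus was taken 5 days after treatment from 5 fetuses in each of 3 groups, named CTL for the controls, BAC for Beta-Ac and CEL for the clinical drug. The labels give gestational day 124 to 130 for all lung samples and 130 to 136 days for hippocampus. For the 9 animals that gave both tissues these labels conflict, with hippocampus ages of 131 to 136 days. No difference in age between the tissues is therefore read from them. The lung labels carry no interval after saline, and the hippocampus labels of the same 3 control animals give 5 days. In hippocampus the treatment and dose fields assign the drugs the other way round from the library names. The library names were followed, because the 6 treated animals that also gave lung have lung labels that match them, and following the fields would only exchange the 2 drug names. Each library of a tissue came from a different animal, and no animal was in more than 1 group of a tissue. The clock hour of delivery is not given in the sources used here. Its part in differences between groups, or in deviations shared within a group, could therefore not be tested.

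The mammalian clock is a feedback loop in transcription. CLOCK and its partner ARNTL (BMAL1), or the CLOCK relative NPAS2, activate the PER, CRY, NR1D and DBP genes. PER and CRY proteins then repress that activation, NR1D1 and NR1D2 (REV-ERB alpha and beta) repress ARNTL, and DBP, TEF and HLF carry the rhythm to output genes, opposed by the repressor NFIL3. In peripheral organs such as lung, glucocorticoids reset this loop, and PER1 is a long-known direct target of the glucocorticoid receptor.

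The reads counted on genes ranged from 14.1 to 45 M in the lung and from 18.3 to 29.3 M in the hippocampus, with the library of animal 15-81 (clinical drug, 4 h) the deepest. Levels are TMM-normalized counts per 1 M reads (CPM), a unit that is not divided by gene length, so levels are compared between samples and not between genes. In edgeR's quasi-likelihood test, called means changed 1.5-fold or more with p under 0.05 and adjusted p under 0.1. In every comparison the median log2 fold change over all tested genes lay between -0.022 and 0.019. In the tissue check, summed lung epithelial markers ranged from 7026 to 18230 CPM in lung, and hippocampal neuron markers from 2549 to 4302 CPM in hippocampus. Control library CTL212 stood apart in hippocampus, with 928.6 CPM over the choroid plexus markers FOLR1, CLIC6 and KL, against 7.208 to 20.17 CPM in the other 14 libraries. In these bulk samples fewer cells of a type and less RNA per cell cannot be told apart.

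At 4 h after the clinical drug, PER1 rose about 5-fold in lung while NR1D1 and DBP fell. PER1, a repressor of CLOCK and ARNTL, stood at 160.9, 201.1 and 96.53 CPM in the saline libraries and at 836.1, 695.2 and 732.1 CPM at 4 h. Every treated library lay above every control, at 754.5 ± 73.06 against 152.8 ± 52.75 CPM (SD, n = 3 in each group). The fold change was 4.94, or 2.31 on the log2 scale with a standard error of 0.28 (adjusted p = 0.000183).

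NR1D1, a nuclear receptor that represses ARNTL, had 9.815, 10.82 and 7.63 CPM in saline libraries and 6.276, 2.467 and 2.942 CPM at 4 h. The groups did not overlap, and its log2 fold change was -1.22 with a standard error of 0.35 (adjusted p = 0.04). DBP, an output factor transcribed directly by CLOCK and ARNTL, had a narrow range of 28.01 to 29.64 CPM in saline libraries and stood at 23.32, 20.41 and 13.21 CPM at 4 h. Its log2 fold change was -0.61 with a standard error of 0.21 (adjusted p = 0.0839).

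Thus 3 of the 10 clock genes were called 4 h after the clinical drug, 1 higher and 2 lower, against 7.4% of all tested genes called in either direction, 3.46% higher and 3.94% lower. The median log2 fold change of the 10 was 0.09, beside 0.02 over all tested genes. Every library at 4 h lay above every control for 3 clock genes, PER1, PER2 and CRY1, and below every control for 2, NR1D1 and DBP. Over all tested genes these separations held for 11.1 and 10.2%. The call of NR1D1 was lost without 15-85, 15-97 or 15-101, with log2 differences of -1.004, -1.056 and -1.104. That of DBP was lost when 15-85, 15-92, 15-97, 15-101, 16-113, 16-120 or 16-136 was left out (-0.67 to -0.42 on the log2 scale), and with Benjamini-Hochberg adjustment (adjusted p = 0.123), without a filter on reads or with only the 2 groups compared (adjusted p = 0.127 for each). The summed lung epithelial markers were 12170 to 18230 CPM at 4 h and 7026 to 10410 CPM in controls, with 2 of 5 tested, SFTPC and ABCA3, called higher, and the part of epithelial content in the clock gene values was not tested.

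The other 7 clock genes did not pass. PER2, the second PER repressor, had 40.2, 21.09 and 20.53 CPM at 4 h against 16.57 to 18.2 CPM in controls (log2 difference 0.67, 95% interval 0.09 to 1.26, adjusted p = 0.131). CRY1, which binds the CLOCK and ARNTL complex to repress it, had 57.48, 63.03 and 80.88 CPM against 48.68 to 56.57 CPM. That difference of 0.32 on the log2 scale passed the adjusted p (0.0901) but not the fold change.

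CRY2, the second cryptochrome, had a log2 difference of 0.35 (95% interval 0.04 to 0.66, adjusted p = 0.136). CLOCK itself had 2.754 to 4.215 CPM at 4 h against 2.379 to 3.628 CPM in controls (log2 difference 0.16, 95% interval -0.61 to 0.93). PER3, NR1D2 and TEF had log2 differences of -0.31, -0.32 and 0.02, with 95% intervals of -1.17 to 0.56, -1.12 to 0.48 and -0.71 to 0.75, so that changes of over 1.5-fold were not excluded by these intervals.

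**Figure D1:**
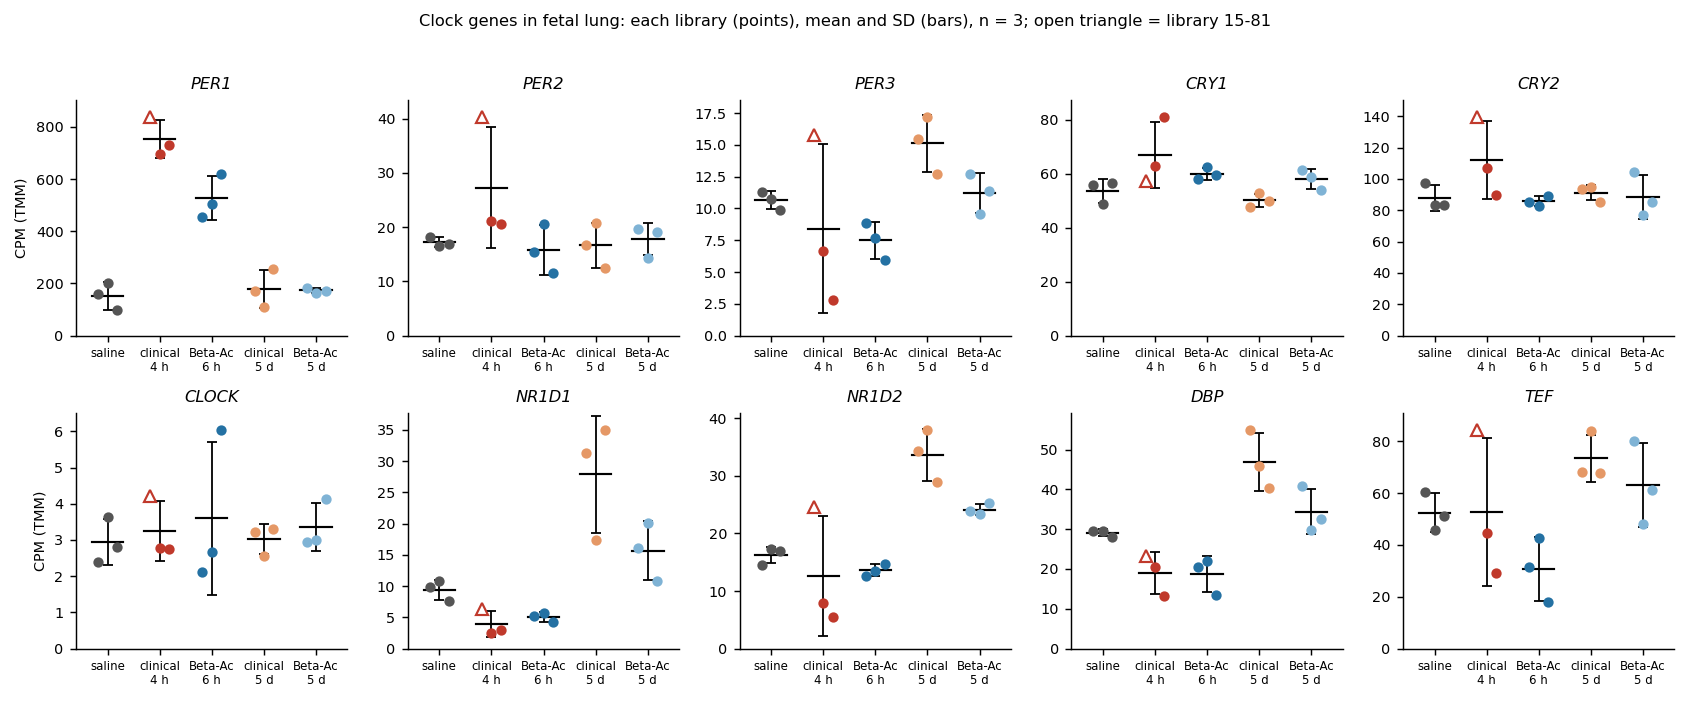
TMM-normalized CPM (vertical axes, linear from 0) of the 10 clock genes in the 15 lung libraries, by group, with points for libraries, a horizontal line for the group mean and bars for 1 SD (n = 3). PER1 stood at 695.2 to 836.1 CPM at 4 h after the clinical drug and at 454.2 to 619.4 CPM at 6 h after Beta-Ac, above all other libraries, and NR1D1 was lowest in the same groups, while library 15-81 (open triangle) was the highest of its group for 9 of the genes.

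The wide intervals were not particular to 4 h, since the fit shared the spread over all 5 lung groups. For NR1D2 the standard error against saline was 0.373 at 4 h and 0.37 for Beta-Ac at 5 days. Within the 4 h group library 15-81, the deepest of the lung libraries at 45 M reads, stood apart. It held 40.2 CPM of PER2, where the other libraries of its group had 21.09 and 20.53 CPM. It held 15.75 CPM of PER3 against 6.655 and 2.817 CPM, 24.64 CPM of NR1D2 against 7.926 and 5.446 CPM, and 84.25 CPM of TEF against 44.71 and 29.11 CPM. For these genes 15-81 lay above the whole range of the saline group, and for PER3, NR1D2 and TEF the other libraries of its group lay below that range. Without 15-81, 5 clock genes were called against saline, which were PER1, PER3, NR1D1, NR1D2 and DBP. PER3 then had a log2 fold change of -1.19 (adjusted p = 0.031), NR1D2 of -1.30 (adjusted p = 0.000805) and NR1D1 of -1.80 (adjusted p = 0.00781). The part of depth in these values was not tested. Leaving out 15-85 or 15-101 in place of 15-81 left PER1 as the only clock gene called. Over all tested genes, 1005 to 1387 were called against saline with each animal left out in turn, beside 1306 in the full fit.

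The order of the 3 libraries at 4 h was shared by many clock genes, an observation made after the values were seen. From 15-81 to 15-85 to 15-97, levels descended for PER2, PER3, CRY2, CLOCK, NR1D2, DBP and TEF. For CRY1 the order was the opposite, as it was for ARNTL (28.65, 49.57 and 77 CPM), NPAS2 (26.35, 41.8 and 67.92 CPM) and NFIL3 (47.61, 67.44 and 68.11 CPM). With 3 libraries this is a description of these animals, with no test.

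At 6 h after Beta-Ac, PER1 was again higher than in saline, and it was the only clock gene called. It had 454.2, 505.5 and 619.4 CPM, all above the controls, and a fold change of 3.45 (log2 fold change 1.79, standard error 0.28, adjusted p = 0.0191). The call was 1 of 10 against 0.442% of all tested genes. The call was lost without control 15-92 (adjusted p = 0.102) and without animal 17-254 (adjusted p = 0.113), with log2 fold changes of 1.81 and 1.65.

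At 6 h after Beta-Ac the NR1D and DBP side of the loop lay low as well, without passing. NR1D1 had 5.161, 5.732 and 4.244 CPM, all below the controls (log2 difference -0.89, 95% interval -1.64 to -0.15, adjusted p = 0.281). DBP had 20.59, 21.97 and 13.5 CPM, all below the controls (-0.64 on the log2 scale, 95% interval -1.09 to -0.18, adjusted p = 0.244). TEF had 31.52, 42.67 and 18.08 CPM, also all below (-0.77, adjusted p = 0.32), and PER3 had 5.932 to 8.855 CPM, also all below (-0.51, adjusted p = 0.495). NR1D2 had 12.6, 13.48 and 14.66 CPM, which just overlapped the controls.

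In all, 4 clock genes lay below every control library and 2, PER1 and CRY1, lay above, where these separations held for 7.28 and 9.03% of all tested genes. The median log2 fold change of the 10 was -0.19, beside 0.02 over all tested genes. For the remaining genes the log2 differences were -0.12 for PER2, -0.04 for CRY2 and 0.29 for CLOCK. Summed lung epithelial markers were 9270 to 13650 CPM at 6 h against 7026 to 10410 CPM in controls, with 0 of 5 called by edgeR and ABCA3 called by DESeq2, and their part in the clock gene values was not tested. The comparisons at 4 h and at 6 h share the same 3 saline libraries, so that their values are not independent of each other.

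The early groups were also set directly against each other, although they differed in dose, formulation, time and animal number series. PER2 was called higher at 4 h after the clinical drug than at 6 h after Beta-Ac, at 20.53 to 40.2 against 11.48 to 20.52 CPM (log2 fold change 0.80, standard error 0.27, adjusted p = 0.0715). It was the only one of the 10 called, against 6.74% of all tested genes. Without 15-81 its log2 fold change was 0.39 (adjusted p = 0.202), and the call was also lost without 16-123 or 17-254. Of the 3 tested blood markers HBA1 and SLC4A1 were called lower at 4 h in this contrast, with sums of 25.2 to 43.19 CPM at 4 h and 37.68, 44.17 and 204.8 CPM at 6 h. The highest sum was that of 17-254, which also held the lowest PER2, and the part of blood in the PER2 difference was not tested. Without 15-81, NR1D1 and NR1D2 were called lower after the clinical drug, with log2 fold changes of -0.91 (adjusted p = 0.0768) and -1.03 (adjusted p = 0.00816). For PER1 the difference of 0.52 did not pass (95% interval -0.059 to 1.098, adjusted p = 0.182), at 695.2 to 836.1 against 454.2 to 619.4 CPM.

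At 5 days PER1 was back near the saline level in both groups, and NR1D1, NR1D2 and DBP lay above it after the clinical drug without passing the test. PER1 had 170.2, 108.3 and 255.4 CPM 5 days after the clinical drug and 183.9, 165.1 and 171.9 CPM after Beta-Ac, both overlapping the controls. The log2 differences from saline were 0.22 (95% interval -0.36 to 0.80) and 0.19 (-0.40 to 0.77).

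NR1D1 had 31.35, 17.33 and 34.93 CPM 5 days after the clinical drug, all above the controls. Its log2 difference of 1.57 (standard error 0.34, unadjusted p = 0.000408) did not pass after adjustment (adjusted p = 0.567). NR1D2, which shares targets with NR1D1, had 34.25, 37.92 and 28.87 CPM, all above the controls at 14.57 to 17.25 CPM (log2 difference 1.05, unadjusted p = 0.0132, adjusted p = 0.931). DBP had 54.81, 45.74 and 40.38 CPM, again all above (0.69, unadjusted p = 0.00538, adjusted p = 0.931).

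No clock gene was called 5 days after the clinical drug by edgeR, where 0% of all tested genes were called. An unadjusted p under 0.05 was found for 3 of the 10 and for 4.39% of all tested genes. DESeq2 called 1, NR1D1 (adjusted p = 0.00754), and edgeR without library 15-81 called 1, NR1D2 (adjusted p = 0.0448). In all, 5 clock genes, PER3, NR1D1, NR1D2, DBP and TEF, lay above every control and 0 below, where this held for 6.25% of all tested genes above and 6.02% below. The median log2 difference of the 10 was 0.35, beside 0.00 over all tested genes. The immediate early genes, which respond to stimulation, summed to 336.1 to 708.5 CPM in this group against 127.5 to 338.3 CPM in controls. Of the 5 tested, 4 had a positive log2 difference, 2 lay above every control and 0 were called by edgeR, with 2 under an unadjusted 0.05 and a median of 0.96. The lung epithelial markers summed to 8215 to 11360 CPM with 0 called, and the part of either list in the clock gene values was not tested.

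The values 5 days after Beta-Ac lay nearer to the controls for NR1D1, while NR1D2 and DBP stood above every control. NR1D1 had 16.1, 20.14 and 10.76 CPM, which touched the control range (log2 difference 0.74, 95% interval 0.01 to 1.46, adjusted p = 0.734). NR1D2 had 23.87, 23.34 and 25.29 CPM, all above the controls (0.57, 95% interval -0.22 to 1.37). DBP had 40.79, 29.75 and 32.62 CPM, also all above (0.24, 95% interval -0.21 to 0.69).

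By edgeR no clock gene was called 5 days after Beta-Ac, with 0.00567% of all tested genes called. Only NR1D1 among the clock genes had an unadjusted p under 0.05, as did 6.42% of all tested genes, and DESeq2 called 0 clock genes. NR1D2 and DBP were the 2 clock genes above every control, and 0 lay below, against 5.73 and 6.4% of all tested genes. The median log2 difference was 0.19, beside 0.01 over all tested genes. All 5 tested lung epithelial markers had a positive log2 difference here, 2 lay above every control and 0 were called by edgeR, with 2 under an unadjusted 0.05 and a median of 0.47. Their sums were 10860 to 12320 CPM against 7026 to 10410 CPM, and their part in the clock gene values was not tested.

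Between the 2 drugs at 5 days, 0 clock genes were called by edgeR or DESeq2, as were 0% of all tested genes by edgeR. Of all tested genes 3.15% had an unadjusted p under 0.05. NR1D1 and DBP had unadjusted p-values under 0.05, with log2 differences of 0.83 (95% interval 0.12 to 1.54) and 0.45 (0.00 to 0.90) toward the clinical drug and an adjusted p of 0.999 for each. These intervals leave room for differences of over 1.5-fold in either gene.

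**Figure D2:**
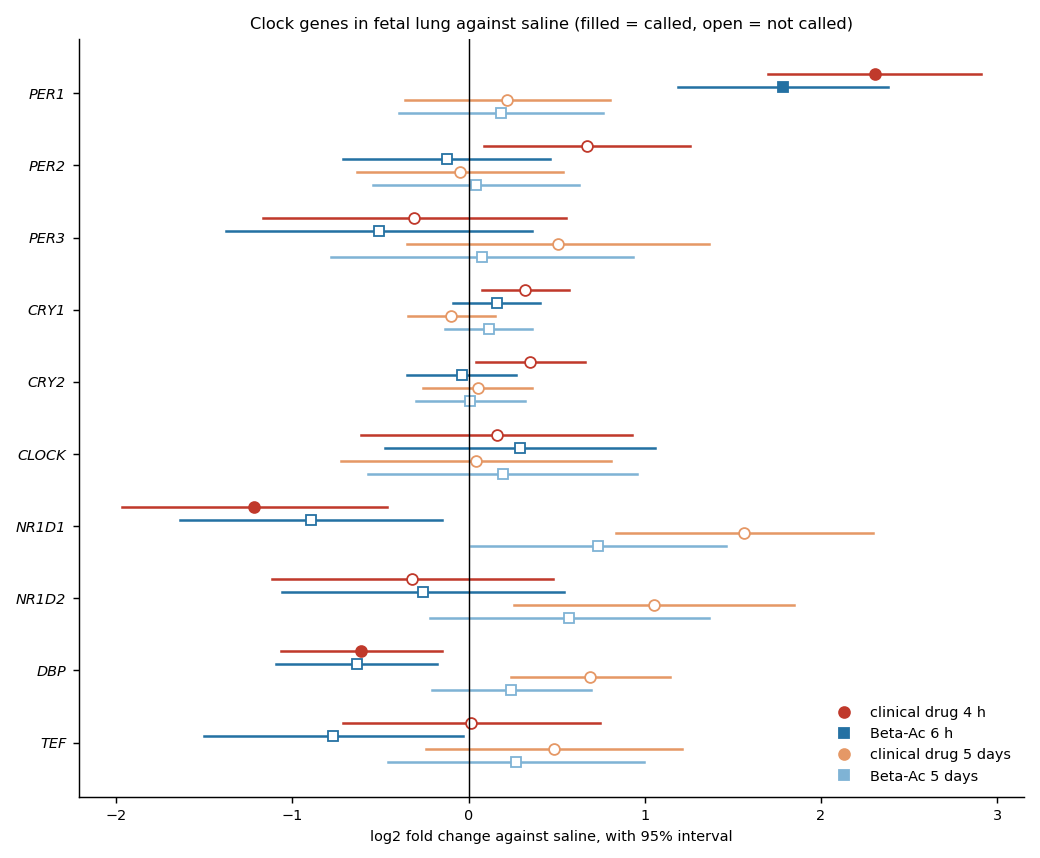
Log2 fold change against saline (horizontal axis) of the 10 clock genes in the 4 treated lung groups, with 95% intervals from edgeR and filled symbols for genes called. PER1 at 2.31 and 1.79 stood apart to the right at the early times, and NR1D1 lay at -1.22 and -0.89 at the early times and at 1.57 and 0.74 at 5 days.

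Set directly against 5 days, the early clinical drug group differed in 5 of the 10 genes, without use of the saline libraries in the contrast. The 4 h animals were 15-81, 15-85 and 15-97, and the 5-day animals were 16-115, 16-120 and 16-126. Time therefore cannot be told apart from the animal number series here. PER1 was higher at 4 h by 2.08 on the log2 scale (standard error 0.28, adjusted p = 0.000283) and PER2 by 0.72 (standard error 0.27, adjusted p = 0.0745). NR1D1 was 6.87-fold lower at 4 h, at 2.467 to 6.276 against 17.33 to 34.93 CPM (log2 fold change -2.78, standard error 0.36, adjusted p = 0.000216). NR1D2 was 2.59-fold lower (log2 fold change -1.37, standard error 0.37, adjusted p = 0.0216). DBP was 2.46-fold lower (log2 fold change -1.30, standard error 0.21, adjusted p = 0.00125).

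CRY1 was higher at 4 h by 0.42 on the log2 scale (adjusted p = 0.0226), a 1.34-fold difference that did not reach the fold threshold. Every library at 4 h lay above every 5-day library for 2 clock genes, PER1 and CRY1, and below for 3, NR1D1, NR1D2 and DBP, whereas those of PER2 overlapped. Over all tested genes these separations held for 15.6% above and 13.5% below. The 5 calls were 2 higher and 3 lower, against 10.4% of all tested genes in either direction, 4.47% higher and 5.92% lower. Without 15-81, PER2 was no longer called (0.30, adjusted p = 0.25), and PER3 (-1.70, adjusted p = 0.00327) and TEF (-1.01, adjusted p = 0.0347) were. PER2 was also lost without 16-115, 16-126 or 16-136. Its call was lost as well with Benjamini-Hochberg adjustment (adjusted p = 0.122) and library totals (adjusted p = 0.108). The same held without a filter on reads (adjusted p = 0.145) and with only the 2 groups compared (adjusted p = 0.123). In the same contrast all 5 tested immediate early genes were called, 4 lower and 1 higher at 4 h, with sums of 179.3 to 282 CPM at 4 h and 336.1 to 708.5 CPM at 5 days, and their part in the clock gene values was not tested.

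For Beta-Ac the same contrast of 6 h with 5 days called 2 clock genes. PER1 was higher at 6 h (log2 fold change 1.60, standard error 0.28, adjusted p = 0.0503) and NR1D1 lower (-1.63, standard error 0.35, adjusted p = 0.0965). Of all tested genes 0.261% were called, 0.227% higher and 0.034% lower. In all, 5 clock genes, PER3, NR1D1, NR1D2, DBP and TEF, lay below every 5-day library and 1, PER1, above, where this held for 5.97% of all tested genes below and 7% above. TEF had a log2 difference of -1.04 (adjusted p = 0.353), DBP of -0.88 (adjusted p = 0.165) and NR1D2 of -0.83 (adjusted p = 0.533). Both calls were lost without 16-128, 16-130, 16-136 or 17-254, with log2 fold changes from 1.47 to 1.63 for PER1 and from -1.85 to -1.41 for NR1D1. The call of NR1D1 was lost without 12 of the 15 animals in all. DESeq2 called DBP as well, and edgeR called NR1D2 (-0.84 on the log2 scale, adjusted p = 0.0432) without 15-81, an animal of neither group.

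Of the rest of the clock, the positive arm and the output factors were examined from a list of 11 transcription factors, of which 8 could be tested in lung. ARNTL, the partner of CLOCK, was called 4 h after the clinical drug, at 28.65, 49.57 and 77 CPM against 30.22, 23 and 35.89 CPM (log2 fold change 0.79, standard error 0.29, adjusted p = 0.096). Its libraries overlapped the controls. The call was lost without 13 of the 15 animals, with Benjamini-Hochberg adjustment, RLE, library totals, another filter or none, and with only the 2 groups compared (adjusted p from 0.1 to 0.224). Without 15-97 the log2 fold change was 0.37 (adjusted p = 0.363). At 6 h after Beta-Ac it had 42.2, 55.76 and 49.43 CPM, all above the controls but not called (0.72, adjusted p = 0.292).

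HLF, the third output factor of the DBP and TEF family, was called at 4 h in the direction opposite to DBP. It had 76.52, 53.99 and 40.88 CPM against 25.52, 18.96 and 24.9 CPM (log2 fold change 1.31, standard error 0.23, adjusted p = 0.00239). At 6 h after Beta-Ac it had 29.85, 38.67 and 21.36 CPM and was not called (0.37, adjusted p = 0.413).

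NPAS2 had log2 differences of 0.22 at 4 h and 0.56 at 6 h, and NFIL3, the repressor that competes with DBP for its sites, of 0.51 and 0.68. Neither was called (adjusted p from 0.118 to 0.491). In this list 2 of 8 were called higher and 0 lower at 4 h, against 3.46% of all tested genes called higher, and 0 of 8 at 6 h, against 0.442% called, with a median log2 fold change of 0.39 and 0.47. At 6 h 4 of the 8 had an unadjusted p under 0.05, as did 11.5% of all tested genes, and DESeq2 called NFIL3 (adjusted p = 0.0737).

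Among 7 tested clock outputs, KLF15 and USP2 were called higher at 4 h and KLF15 at 6 h. Of all tested genes 3.46% were called higher at 4 h and 0.442% were called in either direction at 6 h. KLF15, a transcription factor of metabolism that is both clock-driven and glucocorticoid-responsive, had 121.5, 85.54 and 116.4 CPM at 4 h and 38.91, 48.97 and 70.21 CPM at 6 h, against 18.17 to 23 CPM in controls. Its log2 fold changes were 2.36 (adjusted p = 4.84e-05) and 1.33 (adjusted p = 0.0355). The latter was not called without 15-92, 16-113 or 17-254, or with only the 2 groups compared (adjusted p = 0.14). USP2, a deubiquitinating enzyme with a clock-driven transcript, had 8.129, 9.795 and 10.58 CPM at 4 h against 3.985 to 6.983 CPM (0.87, adjusted p = 0.0709). USP2 was not called without 15-85, 15-92, 15-97 or 16-113. Its call was also lost with Benjamini-Hochberg adjustment (adjusted p = 0.104), without a filter (adjusted p = 0.131) and with only the 2 groups compared (adjusted p = 0.11). The median log2 fold change of the outputs was 0.24 at 4 h and 0.07 at 6 h.

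Of the 11 kinases, ubiquitin ligases and other modifiers of clock proteins, 0 were called against saline at either early time, with medians of -0.03 and 0.06. DESeq2 also called 0, and 5 at 4 h and 0 at 6 h had an unadjusted p under 0.05, where all tested genes had 18.7 and 11.5%. At 5 days 0 genes of these 3 lists were called for either drug by edgeR or DESeq2. After Beta-Ac 2 modifiers had an unadjusted p under 0.05, as did 6.42% of all tested genes. As a check of treatment in lung, 3 of the 4 tested glucocorticoid targets, FKBP5, ZBTB16 and PDK4, were called higher at both early times and not at 5 days. At 6 h the call of PDK4 was lost with Benjamini-Hochberg adjustment (adjusted p = 0.107), with only the 2 groups compared (adjusted p = 0.28) and without 9 of the 15 animals, and that of FKBP5 with only the 2 groups compared (adjusted p = 0.191) and without 15-92 (adjusted p = 0.102). Immediate early genes summed to 179.3 to 282 CPM at 4 h and 213.3 to 511.5 CPM at 6 h, against 127.5 to 338.3 CPM in controls. Of the 5 tested, 0 were called at either early time against saline by edgeR or DESeq2, with 1 at 4 h and 0 at 6 h under an unadjusted 0.05. Summed blood markers ranged from 25.2 to 43.19 CPM at 4 h, 37.68 to 204.8 CPM at 6 h and 22.04 to 77.36 CPM in controls.

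**Figure D3:**
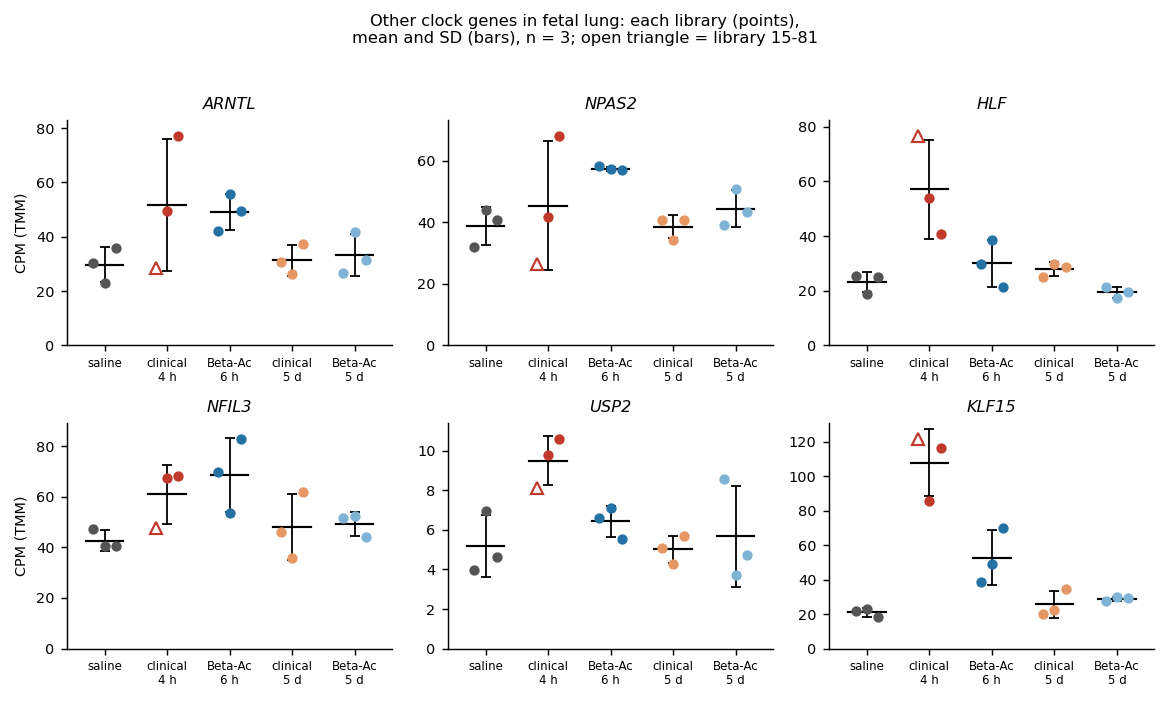
TMM-normalized CPM (vertical axes, linear from 0) of 6 further clock genes in the 15 lung libraries, by group, with points for libraries, a horizontal line for the mean and bars for 1 SD (n = 3). HLF at 40.88 to 76.52 CPM and KLF15 at 85.54 to 121.5 CPM stood above all other libraries 4 h after the clinical drug, whereas ARNTL spread from 28.65 to 77 CPM in that group.

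Whether clock genes of the same fetus deviated together was asked on log2 CPM after the mean of each group was removed. In lung 29 of 45 pairs of the 10 genes had a positive Pearson r, with a median of 0.30. In a two-sided exact permutation test within groups, adjusted over the 45 pairs by the Benjamini-Hochberg method, 1 pair passed at 0.05, and 12 had an unadjusted p under 0.05. That pair was PER2 and TEF, with r = 0.89 and Spearman's rho = 0.91 over 15 libraries (exact permutation p = 0.00013 for each, the smallest the arrangements allow, adjusted p = 0.00579). Its r was 0.81 without the 2 libraries farthest from the median of PER2, and from 0.81 to 0.94 with each animal left out. For PER2 and TEF the adjusted p was 0.0868 without 15-81, 15-85 or 15-97.

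The next pair, PER3 and NR1D2, had r = 0.89 but rho = 0.33 (exact permutation p = 0.14 and 0.378, adjusted p = 0.368 and 0.716). Without the 2 libraries farthest in PER3 its r was 0.05, so that it rested on those libraries, 15-81 and 15-97 of the 4 h group. DBP and TEF, of the same family, had r = 0.86 and rho = 0.78 (exact permutation p = 0.00849 and 0.0126, adjusted p = 0.0764 and 0.0945), with r = 0.71 without the 2 farthest.

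The lowest values were those of CRY1 with PER3, NR1D2 and DBP. Their r was -0.73, -0.70 and -0.50 and their rho -0.19, -0.33 and -0.31. None passed (exact permutation p of 0.204, 0.325 and 0.233 for r and 0.605, 0.391 and 0.384 for rho, adjusted p of 0.459, 0.652 and 0.5 for r and 0.878, 0.716 and 0.716 for rho). Without the 2 farthest libraries r was 0.08, 0.13 and 0.02.

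**Figure D4:**
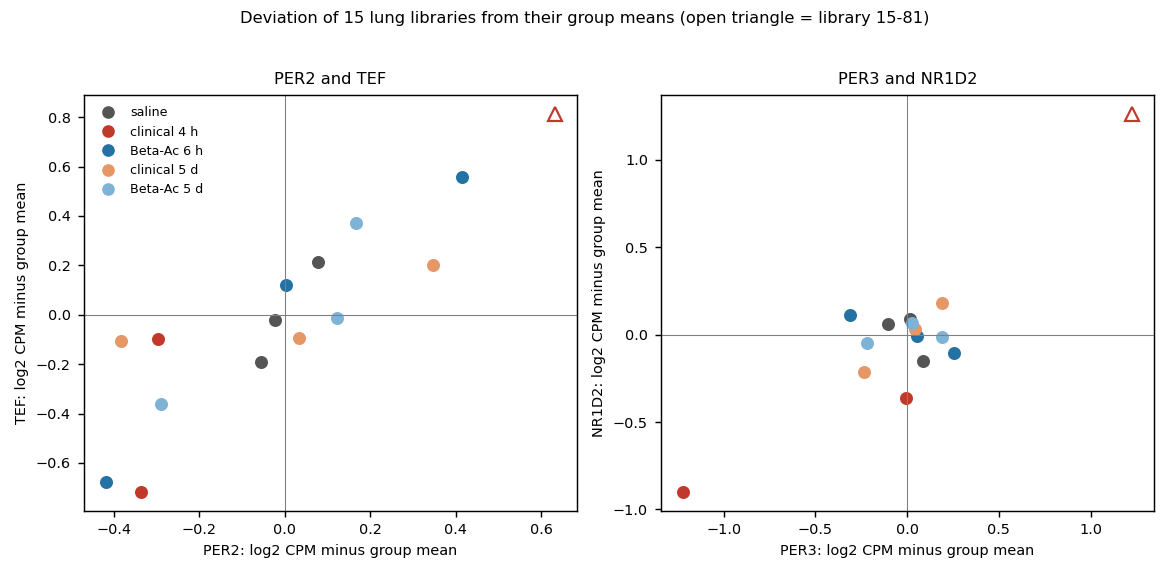
Deviation of log2 CPM from the group mean in 15 lung libraries for PER2 and TEF (left) and for PER3 and NR1D2 (right), with 1 point per library, colours for groups and an open triangle for library 15-81. PER2 and TEF rose together along the whole range (r = 0.89), whereas the r of 0.89 for PER3 and NR1D2 came with a cloud near 0 and 2 far libraries (r = 0.05 without them).

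In hippocampus at 5 days, no clock gene was called in any of the 3 comparisons, and the groups overlapped for every gene. For CEL against CTL 0 of 9 were called, against 7.86% of all tested genes, and 2, PER1 and NR1D2, had an unadjusted p under 0.05. For BAC against CTL 0 of 9 were called, against 0% of all tested genes, with PER3 and CRY2 under an unadjusted 0.05. For CEL against BAC 0 of 9 were called, against 0% of all tested genes, with 0 under an unadjusted 0.05. Over all tested genes 30.6, 12.3 and 13.5% had an unadjusted p under 0.05 in the 3 comparisons. DESeq2 called 0 of the 9 in all 3. The median log2 differences of the 9 were -0.09, -0.17 and 0.09, beside -0.02, -0.01 and 0.00 over all tested genes.

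PER1 was lower in CEL than in CTL, by less than the 1.5-fold threshold. Its levels were 64.57, 65.02, 55.74, 59.42 and 80.99 CPM in CTL, 57.02, 61.6, 47.93, 50.97 and 72.21 CPM in BAC, and 40.05, 49.19, 58.28, 48.72 and 48.68 CPM in CEL. Of the CEL libraries 4 lay below all CTL libraries, and CEL126 lay within the CTL range. The log2 difference of CEL from CTL was -0.41 (95% interval -0.69 to -0.13, adjusted p = 0.0513), and that of BAC from CTL was -0.17 (95% interval -0.45 to 0.11, adjusted p = 0.628). Without CTL212 the difference for CEL was -0.32 (adjusted p = 0.106), and with the sequencing run as a term it was -0.45 (adjusted p = 0.131).

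CRY1 stood at 49.82 CPM in CTL212 and at 24.38 to 27.3 CPM in the other CTL libraries, with 20.15 to 30.59 CPM in BAC and 22.39 to 26.83 CPM in CEL. The CEL difference from CTL was -0.36 on the log2 scale (adjusted p = 0.185). It was -0.11 without CTL212 (adjusted p = 0.537) and -0.64 with the run as a term, where CRY1 was the only clock gene called (adjusted p = 0.083). Within the 2 runs that hold all groups it was -0.62 and not called (adjusted p = 0.112). CTL212 is 1 of the 2 CTL libraries in runs that also hold treated animals.

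PER2 was likewise highest in CTL212, at 54.3 CPM against 32.2 to 36.01 CPM in the other CTL libraries, and NR1D1 lowest there, at 18.61 against 29.23 to 33.24 CPM. The same library held the 928.6 CPM of choroid plexus markers. Among the hippocampus libraries it also had the highest striatal sum (172.1 CPM, next 146.3 CPM in BAC130) and the lowest neuron sum (2549 CPM). Its gestational age of 130 days was the lowest in hippocampus. The part of these traits in its clock gene levels was not tested. Without CTL212 the log2 differences of CEL from CTL were 0.15 for PER2 and 0.03 for NR1D1.

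NR1D2 differed with the sequencing run named in the labels. Its levels were 109.9 to 128 CPM in the 7 libraries of run1630 and 62.6 to 107.8 CPM in the 8 of the other runs, noted after the values were seen. That run holds 1 CTL, 3 BAC and 3 CEL libraries. The CEL difference from CTL was 0.37 on the log2 scale (unadjusted p = 0.044, adjusted p = 0.151) and 0.20 with the run as a term (adjusted p = 0.384).

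The remaining clock genes of the hippocampus were CRY2, PER3, DBP and TEF. CRY2 had 130.5 to 147.1 CPM in CTL, 112.4 to 142.6 CPM in BAC and 119.9 to 142.4 CPM in CEL. PER3 spread most within BAC, at 19.01 to 41.62 CPM, against 32.09 to 44.87 CPM in CTL, with a log2 difference of -0.40 (95% interval -0.79 to -0.01, adjusted p = 0.394). DBP had log2 differences of 0.07 and -0.08 from CTL in CEL and BAC, and TEF of -0.09 and -0.36.

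CLOCK had 0 reads in 10 hippocampus libraries and 1 read in each of the other 5. A count of 0 allows up to 3 reads, or 0.102 to 0.155 CPM at these depths, for counting error only. In lung the same identifier had 2.125 to 6.028 CPM. The tables of the tissues were counted on different sets of identifiers, so the level of CLOCK was not compared between them.

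None of the other listed clock genes was called in hippocampus by edgeR or DESeq2, with 0 of 9 transcription factors, 0 of 11 modifiers and 0 of 7 outputs in each of the 3 comparisons. For CEL against CTL 4, 5 and 3 of them had an unadjusted p under 0.05, for BAC against CTL 4, 3 and 0, and for CEL against BAC 5, 1 and 1. Over all tested genes the shares in these comparisons were 30.6, 12.3 and 13.5%. ARNTL had 34.45 to 44.9 CPM in CTL and 33.66 to 44.18 CPM in CEL (log2 difference -0.16, adjusted p = 0.329). NPAS2, the CLOCK relative of forebrain, had 35.89 to 69.92 CPM in CTL and 36.08 to 50.17 CPM in CEL (-0.41, adjusted p = 0.101), with the lowest CTL value in CTL212. NFIL3 and HLF had log2 differences of 0.33 and -0.01. Summed striatal markers ranged from 41.47 to 172.1 CPM, thalamic markers from 5.833 to 13.36 CPM and blood markers from 0.5949 to 9.064 CPM over the hippocampus libraries. Of 5 tested glucocorticoid targets, edgeR called 0 higher and 1 lower for CEL against CTL and 0 for BAC against CTL. DESeq2 called CDKN1C for CEL against CTL and against BAC. Of 6 tested immediate early genes, edgeR called 1 higher for CEL against CTL, where DESeq2 called EGR2.

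**Figure D5:**
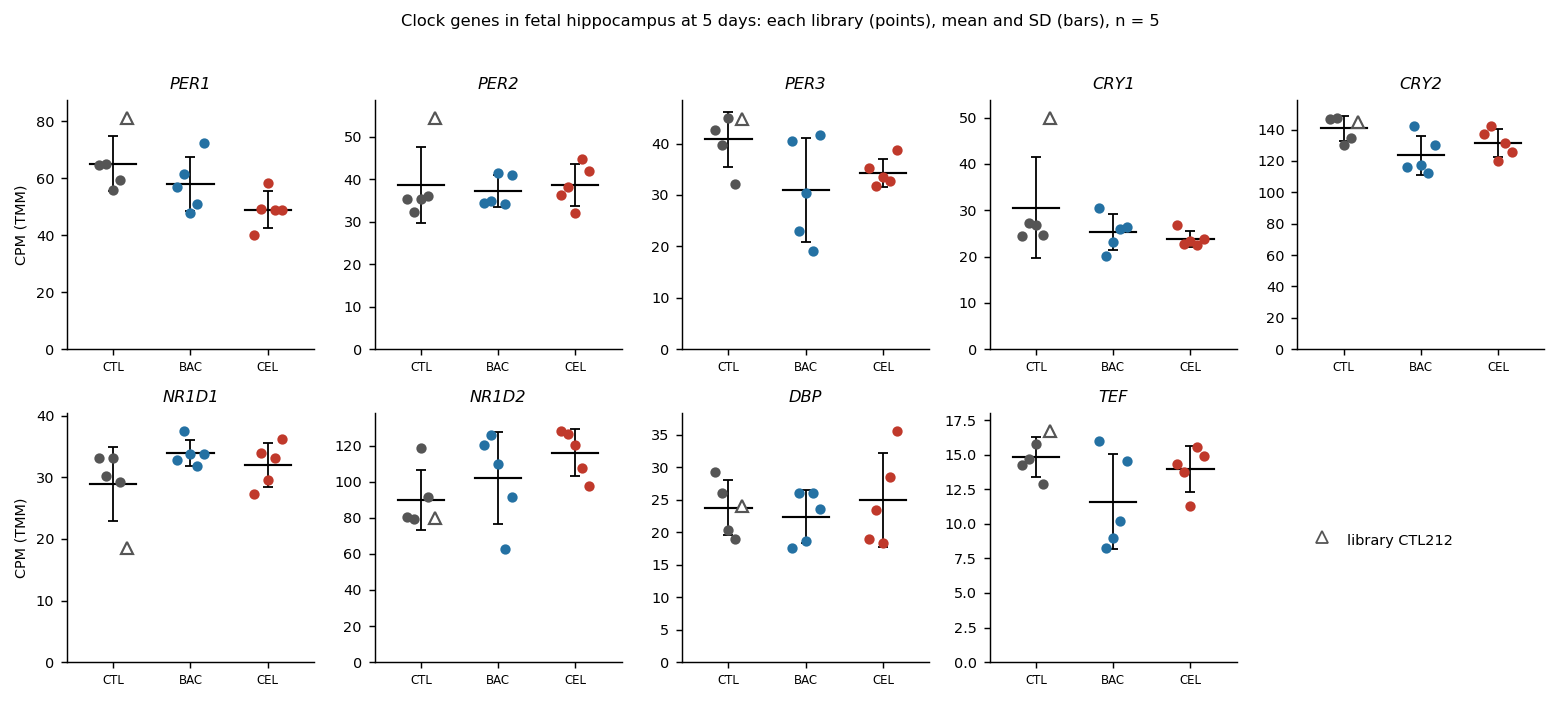
TMM-normalized CPM (vertical axes, linear from 0) of the 9 tested clock genes in 15 hippocampus libraries, by group, with points for libraries, a horizontal line for the mean and bars for 1 SD (n = 5). The groups overlapped for each gene, and library CTL212 (open triangle) held the highest PER1, PER2 and CRY1 (80.99, 54.3 and 49.82 CPM) and the lowest NR1D1 (18.61 CPM).

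Of the 36 pairs of clock genes in hippocampus 22 had a positive r, with a median of 0.17. By permutation within groups 0 passed after adjustment over the 36 pairs, and 3 had an unadjusted p under 0.05. The highest r were 0.73 for PER3 and TEF, 0.58 for PER2 and CRY1 and 0.55 for CRY1 and TEF, with rho of 0.70, 0.15 and 0.66. Their permutation p was 0.0621, 0.149 and 0.00723 for r and 0.0271, 0.595 and 0.0151 for rho, with adjusted p of 0.559, 0.724 and 0.13 for r and 0.244, 0.959 and 0.202 for rho. Without the 2 farthest libraries r was 0.78, 0.09 and 0.51.

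The lowest r was -0.87 for CRY1 and NR1D1 (rho -0.73, permutation p = 0.00435 and 0.00675, adjusted p = 0.13 and 0.202), and -0.69 without the 2 farthest libraries. Next were NR1D2 and DBP at -0.57 (rho -0.59, permutation p = 0.0174 and 0.0168, adjusted p = 0.208 and 0.202), with -0.58 without the 2 farthest. Over the 12 libraries of the runs that hold all groups, with the run means also removed, the sign of NR1D2 and DBP turned, to an r of 0.22 (rho 0.25, permutation p = 0.618 and 0.722), whereas CRY1 and NR1D1 had -0.86 (rho -0.89, permutation p = 0.0417 and 0.0486, adjusted p = 0.65 and 0.75). PER2 and NR1D1 had -0.50 (rho -0.09, permutation p = 0.194 and 0.763, adjusted p = 0.724 and 0.959), with 0.13 without the 2 farthest. Leaving out CTL212 gave CRY1 and NR1D1 an r of -0.52.

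Lung and hippocampus of the same fetus were available for 9 animals, which are 3 controls and 3 for each drug at 5 days. After group means were removed, the highest r between tissues were 0.73 for TEF, 0.68 for PER2 and 0.55 for PER3, with rho of 0.48, 0.58 and 0.38. None of the 9 genes passed (exact permutation p of 0.19, 0.148 and 0.264 for r and 0.375, 0.222 and 0.403 for rho, with an adjusted p of 0.722 for each r and 0.906 for each rho). Without the 2 farthest animals r was 0.12, 0.39 and 0.30.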

How the data were processed

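RNA from fetal lung (15 animals) and fetal hippocampus (15 animals) had been sequenced. The deposited values are raw read counts per Ensembl gene, made by the authors with Bowtie and featureCounts on rhesus build MMUL1.0. The paper names Bowtie 2 and the lung labels name Bowtie 1.2.1.1 and featureCounts 1.5.1. Poly(A) selection is stated for hippocampus. Strand use in counting is not given in the sources used here, so reads of antisense partners cannot be told apart. In lung nothing beyond the animal numbers describes the replicates, whereas hippocampus labels also give a gestational age and a sequencing run. The p-values set group differences against the spread between these animals, which in hippocampus includes differences of age and run within groups. Run also goes partly with group there, since run0024 and run0162 hold only CTL libraries (CTL092, CTL101 and CTL209).

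A gene was tested where 7 or more reads were counted in 3 or more of the lung, or 5 or more of the hippocampus, libraries, with edgeR 4.0.16 in R 4.3.3 (TMM, quasi-likelihood test, 1 fit per tissue). Adjustment ran over all tested genes, with Storey's q in lung and the Benjamini-Hochberg method in hippocampus. Standard errors are the log2 fold change divided by the root of F, and log2 CPM has a prior count of 2. Alternatives were DESeq2 1.42.0, RLE, library totals, other filters, adjustments and thresholds, only the groups compared, the sequencing run, and each animal left out. In simulated counts of the clinical drug at 4 h against saline (17644 genes), 66% of 2-fold and 95% of 4-fold changes were recovered, and for CEL against CTL (17390 genes) 81 and 98%. These changes were placed in genes above a minimum mean count, so recovery among genes with few reads was not measured.

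The clock genes and the other lists were chosen with earlier results of these data known. Named were all 10 genes, ARNTL, NPAS2, NFIL3 and HLF, other clock genes called against saline or CTL (at most 3 per list and comparison), and the 3 highest and 3 lowest pairs per tissue. BHLHE40 and KLF9 were not analysed here.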

Additional observations from a re-analysis of the deposited data

Results flagged for a closer look

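In hippocampus 3 of 27 gene and group combinations held a library farther from the others of its group than Dixon's 95% limit, and all 3 were in CTL212, the control with choroid plexus markers. PER2 stood at 54.3 CPM with the next library at 36.01 CPM, CRY1 at 49.82 CPM with the next at 27.3 CPM, and NR1D1 at 18.61 CPM with the next at 29.23 CPM. By chance about 1 in 20 combinations would pass, or 1.35 of 27. The parts of choroid plexus tissue, of the other marker sums of that library and of its gestational age were not tested.

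In lung the change against saline differed between the early time and 5 days for 5 genes of the clinical drug, in the direct contrast of 4 h with 5 days by edgeR. Time went with the animal number series in that contrast. The log2 differences were 2.08 for PER1, 0.72 for PER2, -2.78 for NR1D1, -1.37 for NR1D2 and -1.30 for DBP, with adjusted p from 0.000216 to 0.0745. The call of PER2 depended on the processing. For Beta-Ac the contrast of 6 h with 5 days gave 1.60 for PER1 (adjusted p = 0.0503) and -1.63 for NR1D1 (adjusted p = 0.0965).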

How the results depend on the processing

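No clock gene that was called changed direction under any alternative. Of 276 refits of the 12 called values 228 kept the call, and of 2239 refits of the 95 other values 18 gave a call and 60 a changed sign. With each animal left out, the clock genes called ranged from 1 to 5 for the clinical drug at 4 h against saline, 0 to 1 for Beta-Ac at 6 h, 0 to 1 for the clinical drug at 5 days, 0 to 2 between the early groups, 4 to 6 for 4 h against 5 days and 0 to 3 for 6 h against 5 days. Pairs that passed ranged from 0 to 4 in lung and 0 to 1 in hippocampus, with leaving animals out of the pairs chosen after seeing the data, and Spearman gave 2 in lung. Between the early groups, clock genes called were 2 without the fold threshold and 0 with Benjamini-Hochberg, without a filter or with only the groups compared. For Beta-Ac at 6 h against 5 days it was 1 with Benjamini-Hochberg, library totals or only the groups compared. DESeq2 called 1 for the clinical drug at 5 days. For CEL against CTL it was 1 without the fold threshold and 1 with the run as a term. Of 575 refits of the 25 other named values that were called, 496 kept the call. The cause was not tested. No paired analysis was possible because no animal was in more than 1 group of a tissue.

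Over all genes, without the fold threshold 2104 genes were called for the clinical drug at 4 h, 2389 between the early groups, 3306 for 4 h against 5 days and 3816 for CEL against CTL. DESeq2 called 247 for Beta-Ac at 6 h, 16 and 40 for the clinical drug and Beta-Ac at 5 days, 8 between the drugs at 5 days, 185 for 6 h against 5 days, and 149 and 186 for BAC against CTL and CEL against BAC. With only the groups compared it was 19, 7, 314 and 9 for Beta-Ac at 6 h, Beta-Ac at 5 days, the early groups and 6 h against 5 days. Without a filter it was 1 and 2 for the clinical drug and Beta-Ac at 5 days and 724 between the early groups. For 6 h against 5 days Benjamini-Hochberg gave 29. For CEL against BAC the run as a term gave 13 and the 2 runs with all groups 2, which for CEL against CTL gave 596. Storey's method gave 1 for BAC against CTL. With each animal left out, Beta-Ac at 6 h ranged from 9 to 211, 6 h against 5 days from 5 to 98, the early groups from 667 to 1971, BAC against CTL from 0 to 184, the clinical drug and Beta-Ac at 5 days from 0 to 9 and 0 to 2, and the 2 drugs at 5 days from 0 to 1.

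With 3 animals per lung group, changes of under 2-fold were often not detectable.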
